A study of Homo sapiens with 60 samples.

Results

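The 8 genes described here are the CDK inhibitor genes: CDKN1A, CDKN1B and CDKN1C of the CIP/KIP family, CDKN2A, CDKN2B, CDKN2C and CDKN2D of the INK4 family, and the phosphatase gene CDKN3. They were chosen by name, and every probe set that the array's annotation gives under one of these symbols was used. That annotation names 16 probe sets for 7 of the 8 genes, among 41091 probe sets that carry a single symbol and 19775 genes. CDKN2C has no probe set under its symbol there and was not analysed here. RNA came from 3 human breast lines on 60 Affymetrix arrays (U133 Plus, version 2). SKBR3 is a mammary adenocarcinoma line that overexpresses the growth factor receptor HER-2, C5.2 was derived from HB4a by transfection of full-length HER-2 cDNA, and HB4a is a normal breast epithelial line. Each line was given both drugs (doxorubicin at 30 nM with rapamycin at 20 nM), doxorubicin alone at 30 nM, rapamycin alone at 20 nM, or the DMSO vehicle, with 5 arrays per group from independent experiments numbered 1, 2, 3, 4 and 6. All cells grew in serum-supplemented RPMI, to which insulin and hydrocortisone were added for C5.2 and HB4a but are not listed for SKBR3. How long cells were treated is not in the labels used here, nor is the promoter of the HER-2 cDNA, and no group is a line with an empty vector.

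A cell enters and completes its division cycle when cyclins activate the cyclin-dependent kinases, which among other acts switch off the retinoblastoma protein and so release the E2F transcription factors. CIP/KIP proteins bind cyclin and kinase together and can stop several CDKs, whereas INK4 proteins bind CDK4 and CDK6 and keep them from the D-type cyclins. CDKN1A is best known as the gene that p53 switches on after DNA damage, and CDKN2A as a gene of senescence and a frequent loss in tumours. Doxorubicin damages DNA by trapping topoisomerase II, and rapamycin inhibits the growth kinase complex mTORC1.

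Levels are the deposited log2 values, and a difference is one group mean minus another, given on the log2 scale with limma's standard error after ±. A gene stands for its brightest probe set and was tested where it passed a log2 value of 5 on at least 5 arrays of the fit. It is said to rise or fall where the 2-sided p adjusted over all genes tested was under 0.05. CDKN1A, CDKN1B, CDKN1C, CDKN2A and CDKN3 passed this filter in C5.2 and HB4a, and CDKN1B, CDKN2A and CDKN3 in SKBR3. CDKN2A passed in SKBR3 on 5 of 20 arrays. CDKN1A had 2 SKBR3 arrays over the limit and CDKN1C had 0. CDKN2D had 1 array over the limit in C5.2 and 0 in the other lines, and CDKN2B had 0 everywhere. For genes below the limit, a fit with the limit at log2 3 is given and named as such. Array medians lay between 1.41 and 1.71 and are taken as background, and levels are not compared between genes because probe sets differ in brightness.

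The lines kept the markers of their labels in part. ERBB2, the HER-2 gene, lay between 10.85 and 11.87 in SKBR3, between 11.63 and 12.23 in C5.2 and between 6.11 and 7.21 in HB4a. The epithelial keratins KRT8, KRT18 and KRT7 were over 5 on every array, but the epithelial cadherin CDH1 lay at or under the array median on 19 of 20 SKBR3 arrays. Of the basal markers, the keratin KRT14 lay there on all arrays of every line. The basal keratin KRT5 had medians of 9.43 in HB4a, 6.01 in C5.2 and 1.76 in SKBR3. The basal cadherin CDH3 had 8.34, 4.92 and 1.19 in the same order. Of the mesenchymal markers, the collagen gene COL3A1 had a median of 10.70 in C5.2 and of 2.26 in HB4a. The others were high in both lines, with medians in C5.2 and HB4a of 11.15 and 8.58 for VIM, 9.03 and 9.29 for SPARC, and 10.53 and 11.16 for FN1. The leukocyte gene PTPRC was at or under the array median on every array. Of the other leukocyte markers, CD3E was low but above the array median on every array, with line medians of 2.13 to 2.31. CD14 had medians of 4.49 in C5.2, 2.45 in HB4a and 0.67 in SKBR3. SKBR3 vehicle array 3 stood above all other 19 SKBR3 arrays for CDH1 (5.06, against a highest value of 0.66 on the others), the fibronectin gene FN1 (8.83 against 4.83), the vimentin gene VIM (3.95 against 2.38) and the matrix gene SPARC (3.46 against 0.70). These genes are abundant in HB4a. In all, 1 of 6 epithelial, 2 of 3 basal and 3 of 4 mesenchymal markers lay above the other arrays there, and 0 of 3 leukocyte and 0 of 3 endothelial markers. Results for the CDK inhibitor genes that use this array are given with and without it where it matters.

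CDKN1A, whose product p21 binds and stops CDK2 and other kinases and also binds the replication clamp PCNA, showed the largest response to treatment among the CDK inhibitor genes tested, and that response depended on the line. It rose by 2.14 ± 0.20 log2 units in doxorubicin-treated C5.2 and by 1.75 ± 0.16 in doxorubicin-treated HB4a against each line's vehicle, whereas in SKBR3, where it was tested with the filter at log2 3, the difference of 0.04 ± 0.33 did not pass, nor did that of 0.49 ± 0.20 without vehicle array 3 unless experiment was a block. Its RefSeq start region (assembly GRCh38.p14, plus strand, chr6:36678464-36678763, 250 bases before and 50 after the start) is shown because this gene carries the main finding, with the GC-box letters GGGCGG in capitals.
CDKN1A: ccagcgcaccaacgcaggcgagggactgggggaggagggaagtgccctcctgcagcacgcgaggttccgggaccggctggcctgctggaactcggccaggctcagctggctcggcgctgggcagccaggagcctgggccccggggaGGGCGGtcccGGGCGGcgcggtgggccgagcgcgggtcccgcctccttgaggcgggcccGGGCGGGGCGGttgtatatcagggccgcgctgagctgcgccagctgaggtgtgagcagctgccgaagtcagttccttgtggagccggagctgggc
On both strands together GGGCGG was found 4 times, beginning 104, 94, 45 and 40 bases before the start, and the last pair overlap by a base. Of 35116 RefSeq windows of this length, 45% hold GGGCGG or its reverse complement. The letters TATAAA, found in 11.5% of windows, were not in this one.

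In doxorubicin-treated C5.2 the CDKN1A levels were 8.45, 8.02, 9.26, 8.76 and 9.22 (experiments 1, 2, 3, 4 and 6), against 6.14, 6.61, 6.78, 6.47 and 6.99 in C5.2 vehicle. Every treated array lay above every vehicle array, and the difference of 2.14 was a 4.42-fold rise (adjusted p = 1.63e-06). In doxorubicin-treated HB4a they were 9.97, 9.97, 10.10, 9.99 and 10.20, against 8.61, 8.67, 8.61, 7.93 and 7.67 in HB4a vehicle. Here too the groups did not overlap. The rise was 3.36-fold (adjusted p = 2.46e-07), and the treated arrays were closer together (SD 0.10) than the vehicle arrays (SD 0.46). Doxorubicin moved 3.26% of the genes tested in C5.2 and 11.4% in HB4a. CDKN1A was the 1 CDK inhibitor gene of 5 tested that rose in either line.

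**Figure D1:**
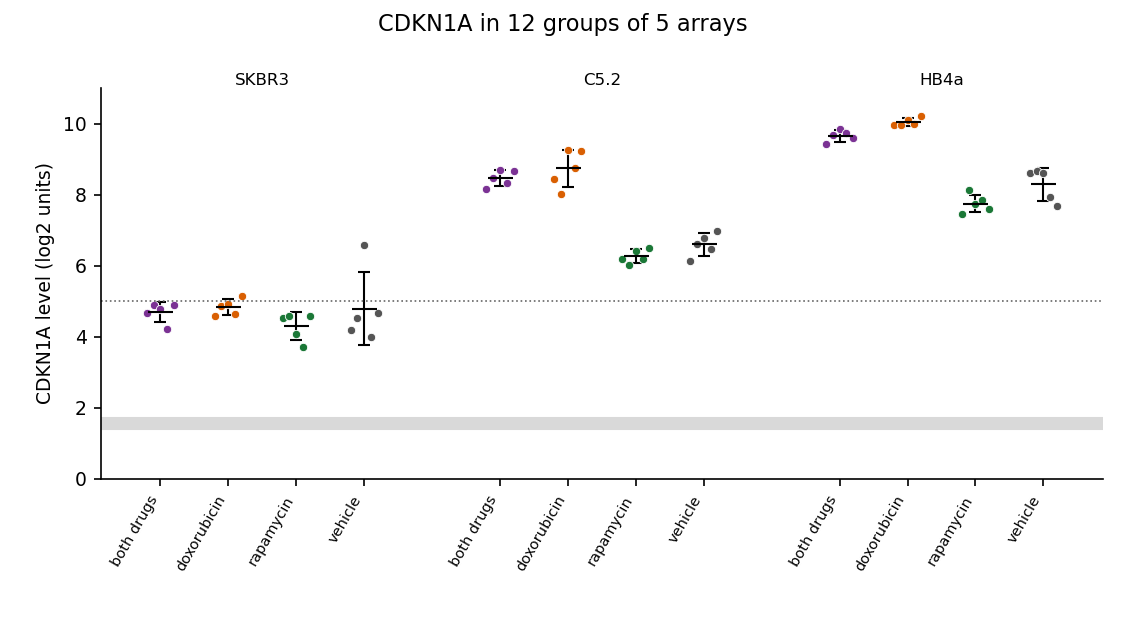
CDKN1A level in log2 units (vertical axis) on each array (points) in the 12 groups, with the group mean and SD (bars); the grey band spans the array medians and the dotted line is the filter at log2 5. Doxorubicin, alone or with rapamycin, gave non-overlapping higher levels in C5.2 and HB4a, while the SKBR3 group means lie together near 4.30 to 4.84, with vehicle array 3 alone at 6.59.

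With both drugs CDKN1A stayed high. The levels were 8.16, 8.47, 8.69, 8.33 and 8.66 in C5.2 and 9.42, 9.86, 9.68, 9.74 and 9.59 in HB4a (experiments 1, 2, 3, 4 and 6). Against vehicle the rise was 1.87 ± 0.20 in C5.2 (adjusted p = 3.12e-06) and 1.36 ± 0.16 in HB4a (adjusted p = 4.97e-06), with no overlap of groups. Against rapamycin alone it was 2.20 ± 0.20 in C5.2 (adjusted p = 7.09e-07) and 1.91 ± 0.16 in HB4a (adjusted p = 2.67e-07). Against doxorubicin alone the levels with both drugs were 0.28 ± 0.20 lower in C5.2 (adjusted p = 0.398) and 0.39 ± 0.16 lower in HB4a (adjusted p = 0.252). Neither passed the test, although in HB4a the 5 arrays with both drugs all lay below the 5 with doxorubicin. A fit of only the compared arrays gave adjusted p = 0.0253 for HB4a, and array weights gave -0.48 with adjusted p = 0.0256 for C5.2. The pair departed from the sum of the single drugs by 0.05 ± 0.28 in C5.2 and 0.16 ± 0.23 in HB4a (95% intervals -0.54 to 0.65 and -0.32 to 0.64).

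With rapamycin alone the CDKN1A difference from vehicle was small and did not pass the test. The levels were 6.18, 6.02, 6.42, 6.20 and 6.51 in rapamycin-treated C5.2 and 7.46, 8.12, 7.73, 7.84 and 7.61 in rapamycin-treated HB4a, each overlapping its vehicle group. Same-numbered experiments showed a lower level with rapamycin in 4 of 5 pairs in C5.2 and in 5 of 5 in HB4a. The difference was -0.33 ± 0.20 in C5.2 (adjusted p = 0.263) and -0.55 ± 0.16 in HB4a (adjusted p = 0.0713). Arrays of the same number varied together in these comparisons, and with the experiment as a block CDKN1A fell in both lines (adjusted p = 0.0325 and 0.0165). The block raised calls over all genes as well, from 1097 to 2781 of 6292 in C5.2 and from 196 to 1008 of 6167 in HB4a. Leaving out HB4a vehicle array 4 or 6, or HB4a rapamycin array 2, also brought the HB4a difference past the threshold.

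In SKBR3 the CDKN1A levels were 4.67, 4.89, 4.77, 4.21 and 4.89 with both drugs, 4.59, 4.85, 4.93, 4.65 and 5.16 with doxorubicin, 4.53, 4.57, 4.08, 3.71 and 4.59 with rapamycin, and 4.18, 4.54, 6.59, 4.0 and 4.66 with vehicle. Array 3 of the vehicle group was the outlier, and without it that group averaged 4.34 ± 0.31 (SD, n = 4). With the filter at log2 3, doxorubicin differed from vehicle by 0.04 ± 0.33 (95% interval -0.65 to 0.73, adjusted p = 1.0), rapamycin by -0.50 ± 0.33 (adjusted p = 0.376) and both drugs by -0.11 ± 0.33 (adjusted p = 0.845). Without vehicle array 3 the doxorubicin difference was 0.49 ± 0.20 (adjusted p = 0.619), that of both drugs 0.34 ± 0.20 (adjusted p = 0.252) and that of rapamycin -0.05 ± 0.20 (adjusted p = 0.918). Numbers paired the SKBR3 arrays, and without that array and with experiment as a block the doxorubicin and both-drugs differences passed (0.50 and 0.35, adjusted p = 0.0227 and 0.0281). The same array lay above the other 19 SKBR3 arrays for 7 of the 18 p53-list genes with a value, GDF15 (5.84 against a highest value of 3.49) and BAX (6.21 against 5.64) among them. Their part in the SKBR3 result was not tested.

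The response of CDKN1A differed between lines when the difference was tested itself. The doxorubicin response was 2.10 ± 0.41 lower in SKBR3 than in C5.2 (adjusted p = 0.00168) and 1.71 ± 0.39 lower in SKBR3 than in HB4a (adjusted p = 0.00552). Without SKBR3 vehicle array 3 these were -1.65 and -1.26 (adjusted p = 4.83e-04 and 0.00281). For both drugs the response was 1.97 ± 0.41 lower in SKBR3 than in C5.2 (adjusted p = 8.85e-04) and 1.47 ± 0.39 lower than in HB4a (adjusted p = 0.0102). The HB4a value had adjusted p = 0.0575 in a fit of only the compared arrays. Between C5.2 and HB4a the doxorubicin responses differed by 0.40 ± 0.27 (95% interval -0.14 to 0.94, adjusted p = 1.0). These comparisons share the vehicle arrays of each line. Of 5 CDK inhibitor genes tested, 1 differed in the doxorubicin response between SKBR3 and C5.2, where 1.47% of genes did, and 1 between SKBR3 and HB4a, where 3.87% did. For rapamycin 1 of 5 differed against each line (6.23% and 5.03% of genes), for both drugs 2 of 5 against C5.2 (12.3%) and 3 of 5 against HB4a (9.82%). CDKN1A and CDKN1C would not have passed the filter on SKBR3 arrays alone, and CDKN1C was near background there. CDKN1C is 1 of the 3 called against HB4a for both drugs and restates the HB4a fall, so these counts are descriptive. Between C5.2 and HB4a limma called 0 of 5 for doxorubicin, rapamycin or both drugs (0.101%, 0% and 0.373% of genes), with 1 of 5 at an unadjusted p under 0.05 each time.

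Across the 12 groups CDKN1A was highest in HB4a with doxorubicin (10.05 ± 0.10), then in HB4a with both drugs (9.66 ± 0.17), and these did not overlap each other or the rest (SD, n = 5 each). C5.2 with doxorubicin (8.74 ± 0.52), C5.2 with both drugs (8.46 ± 0.22) and HB4a vehicle (8.30 ± 0.46) followed, each overlapping the next, so treated C5.2 reached about the level of untreated HB4a. HB4a with rapamycin, C5.2 vehicle, C5.2 with rapamycin and the SKBR3 groups came below in that order. The genes with the most similar differences from vehicle over the 9 treatment groups, among 7714 compared, were AEN and PHLDA3 (Pearson r = 0.985 each), CES2 (0.984), and TNFRSF10B and PIDD1 (0.983 each). Over the 12 group means they were NTPCR (0.992), DDB2 (0.989) and PHLDA3 (0.988). These points share 3 lines and their vehicle arrays, and the values are descriptive.

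The other genes of the p53 pathway moved with CDKN1A in the same lines. Of this list of 22 genes, 14 were tested in C5.2, where 9 rose and 0 fell with doxorubicin (median difference 0.98, all genes 0.02, with 3.26% of genes moved). In HB4a 15 were tested and 12 rose and 0 fell (median 1.04, all genes 0.07, with 11.4% of genes moved). GDF15, a secreted stress cytokine, rose by 2.93 ± 0.24 in C5.2 and by 2.77 ± 0.25 in HB4a (adjusted p = 9.33e-07 and 1.89e-07). TP53I3, an oxidoreductase gene, rose by 1.77 ± 0.16 and 2.13 ± 0.16, and MDM2, which encodes the ubiquitin ligase of p53, by 1.51 ± 0.39 and 1.27 ± 0.34 in the same order (adjusted p for MDM2 0.0353 and 0.019). With both drugs 13 of 14 rose in C5.2 and 13 of 15 in HB4a, and 0 fell, where 21% and 17.4% of genes moved. With rapamycin alone 1 rose in each line: ZMAT3 in C5.2 (0.91 ± 0.30) and the growth-arrest gene GADD45A in HB4a (0.86 ± 0.11). Over all genes rapamycin moved 17.4% in C5.2 and 3.18% in HB4a, so these single calls say little about the list. In SKBR3 8 were tested and limma called 0 with doxorubicin (0.837% of genes) or both drugs (22% of genes). MDM2 there differed by -0.16 ± 0.23 with doxorubicin, and AEN fell by 0.42 ± 0.12 with rapamycin (18.3% of genes moved). These SKBR3 fits include vehicle array 3, which lay above the other SKBR3 arrays for several list genes. Among the brighter ones were AEN (5.32 against a highest value of 5.22), BAX (6.21 against 5.64) and GADD45A (6.40 against 6.37). List values without that array are not given here.

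**Figure D2:**
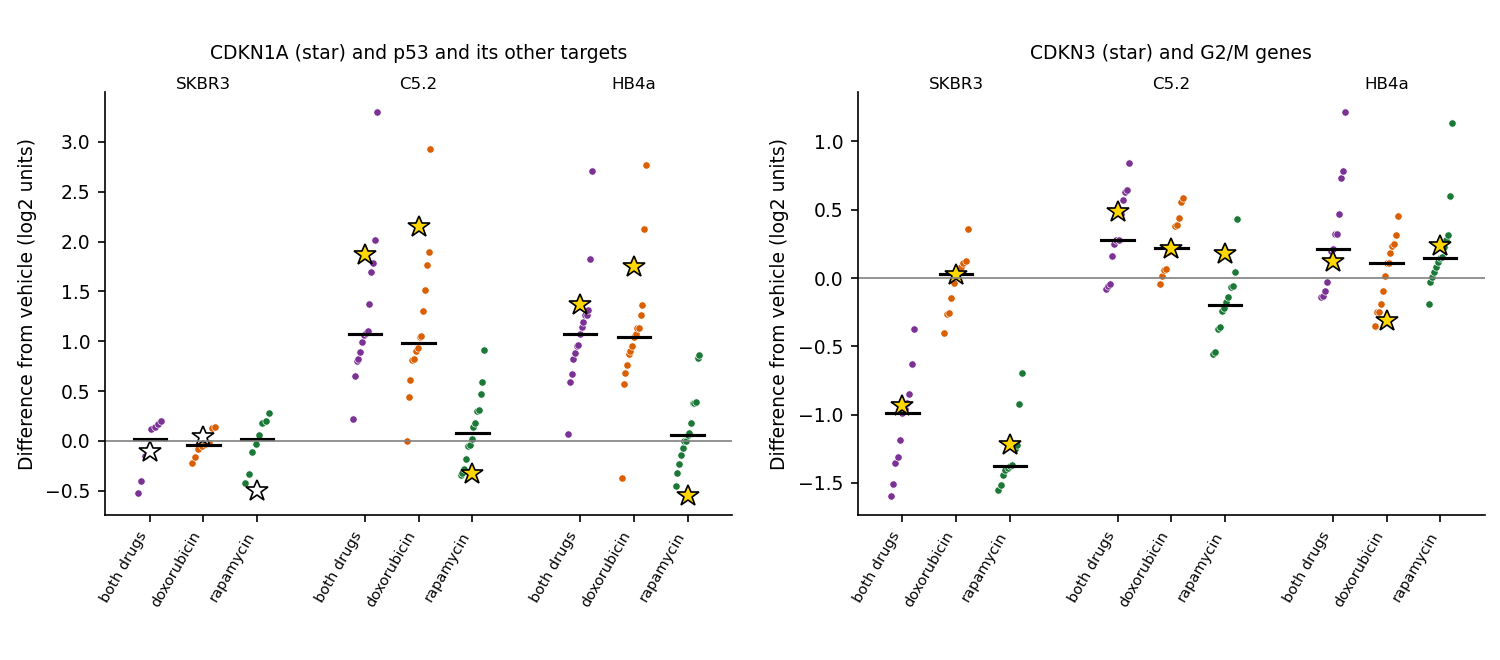
Difference from vehicle in log2 units (vertical axis) for each tested gene of the p53 list (left, points) with CDKN1A (star) and of the G2/M list (right, points) with CDKN3 (star), by line and treatment; black bars are list medians, and a white star is a value from the fit with the filter at log2 3. The p53 list is raised with doxorubicin in C5.2 and HB4a together with CDKN1A, and the G2/M list is lowered with rapamycin in SKBR3 together with CDKN3.

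CDKN1B, which encodes p27, the inhibitor of CDK2 that is controlled largely through its own destruction, passed the test in no treatment comparison of any line in the fits as designed. Its levels lay between 5.24 and 6.26 over the SKBR3 arrays, between 5.54 and 7.41 in C5.2 and between 5.47 and 6.67 in HB4a. Against vehicle, both drugs differed by -0.01 ± 0.21 in SKBR3, 0.13 ± 0.29 in C5.2 and 0.38 ± 0.18 in HB4a (adjusted p = 0.981, 0.815 and 0.155). The 95% intervals were -0.44 to 0.42 in SKBR3, -0.47 to 0.74 in C5.2 and 0.01 to 0.75 in HB4a, so changes of up to about these sizes are not excluded. With array weights CDKN1B passed in C5.2 for both drugs against vehicle (0.41, adjusted p = 0.0409) and against doxorubicin (0.45, adjusted p = 0.044). Rapamycin alone differed by 0.03 ± 0.21, 0.08 ± 0.29 and 0.26 ± 0.18 in the same order. In C5.2 experiment 2 gave the lowest level in all groups, 5.69 with both drugs, 5.54 with doxorubicin, 5.96 with rapamycin and 6.34 with vehicle.

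Of the genes of the machinery that degrades p27 and p21, SKP2 fell in all 3 lines with both drugs. This substrate receptor, which delivers p27 for destruction, fell by 0.79 ± 0.13 in SKBR3, by 0.61 ± 0.10 in C5.2 and by 0.44 ± 0.13 in HB4a (adjusted p = 1.6e-04, 4.09e-04 and 0.0238). With rapamycin alone it fell in SKBR3 (-0.68 ± 0.13) and C5.2 (-0.43 ± 0.10), and in HB4a the difference was -0.25 ± 0.13 (adjusted p = 0.386). Its cofactor CKS1B went opposite ways by line with both drugs: it fell in SKBR3 (-0.44 ± 0.07) and rose in C5.2 (0.33 ± 0.07) and HB4a (0.57 ± 0.09). Of the 13 genes of this list, 6 of 12 tested fell and 0 rose in SKBR3 with both drugs, where 22% of genes moved. In C5.2 1 rose and 2 fell of 12 (21% of genes), and in HB4a 1 rose and 1 fell of 11 (17.4% of genes), counts near the background.

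CDKN1C encodes p57, the CIP/KIP inhibitor best known as an imprinted gene of embryonic growth. It was lower in HB4a with either doxorubicin group. Its levels were 5.33, 5.69, 6.06, 6.23 and 6.12 with both drugs, 5.54, 5.83, 5.92, 6.40 and 6.01 with doxorubicin, 5.62, 6.26, 6.09, 6.89 and 6.46 with rapamycin, and 6.70, 6.26, 6.98, 7.44 and 7.25 with vehicle (experiments 1, 2, 3, 4 and 6). It fell by 1.04 ± 0.23 with both drugs, without overlap, and by 0.99 ± 0.23 with doxorubicin, where doxorubicin array 4 (6.40) lay above vehicle array 2 (6.26) (adjusted p = 0.00365 and 0.00895). These are 2.06-fold and 1.98-fold. The rapamycin difference was -0.66 ± 0.23 (adjusted p = 0.15), lower in 5 of 5 same-numbered pairs, and passed with the experiment as a block (adjusted p = 0.00103). Of the 5 CDK inhibitor genes tested in HB4a, both drugs moved 3 (1 up and 2 down, where 17.4% of genes moved), doxorubicin 2 (1 up and 1 down), and rapamycin 0 (3.18% of genes, with 2 of 5 at an unadjusted p under 0.05).

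In C5.2 the levels of CDKN1C were 5.32, 5.14, 5.76, 5.60 and 5.62 with both drugs, 5.12, 5.24, 5.83, 5.27 and 5.60 with doxorubicin, 5.78, 5.32, 6.36, 6.27 and 6.31 with rapamycin, and 5.28, 5.59, 6.28, 5.71 and 6.31 with vehicle. All 4 groups overlapped. Doxorubicin differed from vehicle by -0.42 ± 0.22 (adjusted p = 0.397), with a lower level in 5 of 5 pairs and adjusted p = 0.014 with the experiment as a block. Rapamycin differed by 0.17 ± 0.22 (adjusted p = 0.625). Both drugs lay 0.52 ± 0.22 below rapamycin alone (adjusted p = 0.213), in 5 of 5 pairs, which passed with the block (adjusted p = 0.00236) and without C5.2 rapamycin array 2. The rapamycin responses of C5.2 and HB4a differed by 0.84 ± 0.33 (adjusted p = 0.838), which passed with the block (adjusted p = 0.00698). In SKBR3 the levels lay between 1.53 and 2.46, close to the array medians, and no treatment test was run for this gene at either filter. No fall could be seen from such levels, so a difference of response between SKBR3 and another line restates the other line's change for CDKN1C. That holds for the CDKN1C call counted above for both drugs against HB4a.

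**Figure D3:**
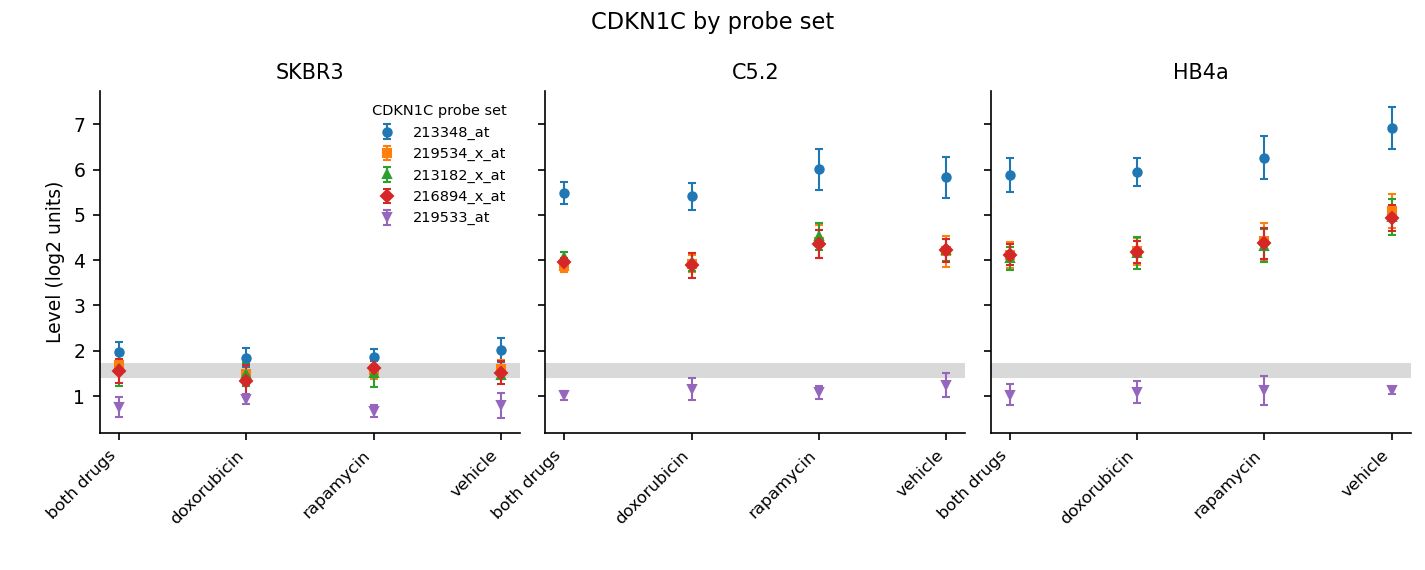
Level in log2 units (vertical axis) of the 5 CDKN1C probe sets by line and treatment, as group means with SD (n = 5); the grey band spans the array medians. Probe sets 213348_at, 219534_x_at, 213182_x_at and 216894_x_at have lower means in treated HB4a than in vehicle, and 219533_at lies under the array medians throughout. Of these only 213348_at was tested there.

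Of the other probe sets of CDKN1C, 3 had lower means in treated HB4a, but none of them passed the filter there, so they were not tested. Means with both drugs were 4.12, 4.04 and 4.12 for 219534_x_at, 213182_x_at and 216894_x_at, against 5.09, 4.96 and 4.93 in vehicle. These 3 probe sets read close to background in SKBR3, with group means between 1.34 and 1.69. Probe set 219533_at lay at or under the array median on every array. With the mean of all probe sets as the gene's value, CDKN1C no longer passed the filter.

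CDKN2A encodes p16, which binds CDK4 and CDK6, and from an alternative start p14ARF, which protects p53 from MDM2. Which transcript each probe set reads was not determined here. It was slightly lower with both drugs in C5.2 and HB4a. Levels with both drugs were 8.82, 9.13, 8.74, 8.60 and 9.03 in C5.2, against 9.05, 9.32, 9.31, 9.30 and 9.46 in C5.2 vehicle, and the groups overlapped. It fell there by 0.43 ± 0.13 (adjusted p = 0.0197), and the call was lost with quantile normalization (adjusted p = 0.0697) and without C5.2 vehicle array 6 or both-drugs array 3 or 4. In HB4a the levels were 8.16, 8.20, 8.21, 8.64 and 8.43, against 8.55, 8.88, 8.67, 8.84 and 8.77 in HB4a vehicle. The fall was 0.42 ± 0.12 (adjusted p = 0.0157) and was lost with the mean of all probe sets, whose difference was -0.19. Single drugs gave smaller differences, -0.22 ± 0.13 with doxorubicin and -0.23 ± 0.13 with rapamycin in C5.2 (adjusted p = 0.466 and 0.211), and both passed with the experiment as a block (adjusted p = 0.0429 and 0.0161). So did both drugs against doxorubicin in C5.2 (-0.20 ± 0.13, adjusted p = 0.308 without and 0.0349 with the block).

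The other CDKN2A probe set with signal, 207039_at, showed the change more clearly in C5.2. Its group means were 7.33 ± 0.15 with both drugs, 7.67 ± 0.17 with doxorubicin and 7.64 ± 0.03 with rapamycin, against 8.02 ± 0.12 in vehicle (SD, n = 5 each). In a fit of every probe set it fell by 0.69 ± 0.09, 0.34 ± 0.09 and 0.38 ± 0.09 (adjusted p = 2.47e-05, 0.0407 and 0.0075), and with both drugs it was also lower than with doxorubicin (-0.35 ± 0.09, adjusted p = 0.0157) and rapamycin (-0.32 ± 0.09, adjusted p = 0.0413). In HB4a its means were 7.01 ± 0.24 with both drugs and 7.41 ± 0.17 with vehicle, without overlap, and the difference did not pass (adjusted p = 0.0778). Probe set 211156_at read at background, with group means between 1.0 and 1.42.

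In SKBR3 the CDKN2A levels were 4.72, 4.60, 4.66, 4.71 and 4.64 with rapamycin, all below the vehicle levels of 4.90, 4.93, 5.10, 4.87 and 4.99. The difference was -0.29 ± 0.13 (adjusted p = 0.118) and passed with the experiment as a block (adjusted p = 0.0353). Vehicle array 3 (5.10) was 1 of the 5 SKBR3 arrays that carried CDKN2A past the filter. Without it CDKN2A was not tested in SKBR3, so these values and the counts over 3 tested genes rest on that array. With both drugs it was -0.20 ± 0.13 (adjusted p = 0.251), and with doxorubicin 0.10 ± 0.13 (adjusted p = 1.0). The level with both drugs was 0.30 ± 0.13 lower than with doxorubicin (adjusted p = 0.0921, and 0.0258 with the block).

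CDKN2B encodes p15, the INK4 inhibitor known as a target of TGF-beta signalling, and lies beside CDKN2A. Its levels were low: 0.32 to 1.64 over the SKBR3 arrays, 2.39 to 4.77 in C5.2 and 1.79 to 3.14 in HB4a. With the filter at log2 3 it was tested in C5.2, where doxorubicin differed from vehicle by 0.32 ± 0.36 (adjusted p = 0.794), rapamycin by -0.24 ± 0.36 (adjusted p = 0.717) and both drugs by 0.02 ± 0.36 (adjusted p = 0.988). In C5.2 experiment 2 was lowest in each treated group. Its other probe set, 207530_s_at, lay at or under the array median on every array.

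CDKN2D encodes p19, the INK4 inhibitor that cycles with cell division. Its levels were 2.81, 3.52, 2.84, 2.78 and 2.95 in SKBR3 with both drugs, 3.48, 3.62, 3.86, 3.53 and 3.56 with doxorubicin, 2.32, 2.52, 3.25, 2.80 and 2.90 with rapamycin, and 3.12, 3.09, 3.45, 3.52 and 3.37 with vehicle. With the filter at log2 3 it fell with rapamycin by 0.55 ± 0.17 (adjusted p = 0.0305, where 13.3% of genes at that filter moved), lower in 5 of 5 pairs, although the groups overlapped. The call was lost without SKBR3 vehicle array 3 (-0.52 ± 0.18, adjusted p = 0.0722) and without any of 4 other arrays, and held with the experiment as a block (adjusted p = 0.00633). It was 0.63 ± 0.17 lower with both drugs than with doxorubicin (adjusted p = 0.0131). The 95% interval of both drugs against vehicle in SKBR3 was -0.67 to 0.02 (adjusted p = 0.169). In C5.2 and HB4a 0 treatment comparisons passed in the limma fit over all arrays without the block. Both drugs against doxorubicin in C5.2 passed without the arrays that stood apart (0.38, adjusted p = 0.0378). Probe set 213586_at read at background, with group means between 1.09 and 1.57.

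**Figure D4:**
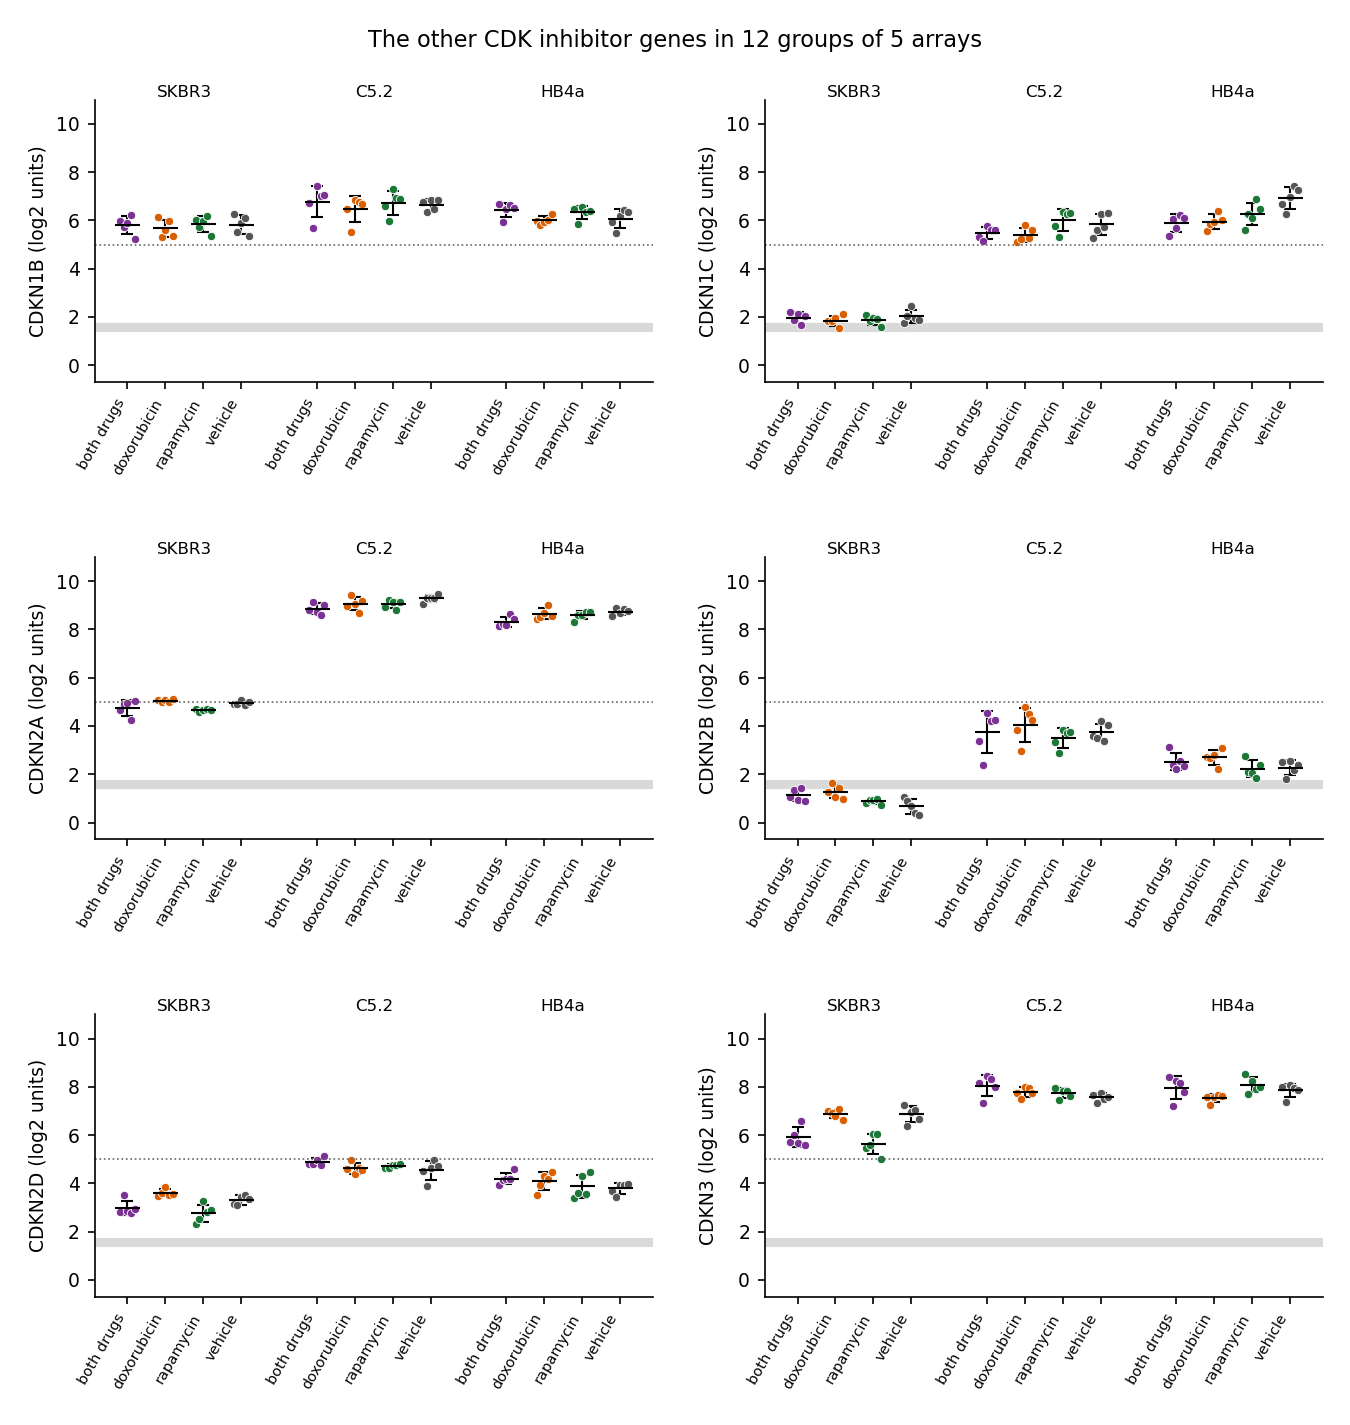
Level in log2 units (vertical axis) on each array (points) with group mean and SD (bars) for CDKN1B, CDKN1C, CDKN2A, CDKN2B, CDKN2D and CDKN3 in the 12 groups; the grey band spans the array medians and the dotted line is the filter at log2 5. CDKN1C and CDKN2A differ most between SKBR3 and the other lines, and CDKN3 is lowered in SKBR3 with rapamycin and with both drugs.

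CDKN3 encodes a phosphatase that removes the activating phosphate from CDK2 and whose RNA is known to peak as cells divide. It fell in rapamycin-treated SKBR3 and in no other line. Its RefSeq start region (GRCh38.p14, plus strand, chr14:54396757-54397056) is shown because CDKN3 moved with the G2/M genes, many of which are known for CCAAT and CHR elements. Capitals mark CCAAT and TTTGAA or their reverse complements, ATTGG and TTCAAA.
CDKN3: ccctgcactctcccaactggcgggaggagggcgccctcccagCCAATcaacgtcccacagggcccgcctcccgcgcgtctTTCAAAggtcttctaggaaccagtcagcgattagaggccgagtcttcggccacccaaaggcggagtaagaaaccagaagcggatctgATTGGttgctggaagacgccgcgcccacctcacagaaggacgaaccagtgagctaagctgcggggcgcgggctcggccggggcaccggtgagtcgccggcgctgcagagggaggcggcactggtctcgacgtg
CCAAT or ATTGG was found 2 times, beginning 208 and 83 bases before the start, and TTCAAA 1 time, beginning 170 bases before it. Of 35116 windows, 34.6% hold the CCAAT letters, 15.2% the TTTGAA letters and 5.9% both, on either strand. The CDKN1A window holds none of these. The CDKN1B window holds CCAAT 3 times and the CDKN2D window 1 time, without TTTGAA.

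In SKBR3 the CDKN3 levels were 5.72, 6.02, 5.66, 6.59 and 5.59 with both drugs, 6.99, 6.90, 6.80, 7.07 and 6.63 with doxorubicin, 5.46, 5.57, 6.05, 6.06 and 5.03 with rapamycin, and 7.23, 6.39, 6.96, 7.04 and 6.65 with vehicle. All rapamycin arrays lay below all vehicle arrays, and 1 array with both drugs (experiment 4) lay above the lowest vehicle array. CDKN3 fell by 1.22 ± 0.21 with rapamycin, or 2.34-fold (adjusted p = 2.46e-04), and by 0.94 ± 0.21 with both drugs (adjusted p = 0.0029). Its level with both drugs was 0.96 ± 0.21 lower than with doxorubicin (adjusted p = 0.00235), and 0.28 ± 0.21 above that with rapamycin (adjusted p = 0.78). Doxorubicin alone differed from vehicle by 0.02 ± 0.21 (95% interval -0.41 to 0.45, adjusted p = 1.0). The call for both drugs was lost without the SKBR3 arrays that stood apart, number 1 of each group and vehicle 3 (-0.73, adjusted p = 0.0833).

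The other probe set, 209714_s_at, fell by 1.19 ± 0.19 with rapamycin and by 1.01 ± 0.19 with both drugs in the fit of every probe set (adjusted p = 1.5e-04 and 8.37e-04). CDKN3 was the 1 of 3 CDK inhibitor genes tested in SKBR3 that moved with rapamycin or with both drugs, where 18.3% and 22% of genes moved. It was likewise 1 of 3 for both drugs against doxorubicin (22% of genes). Limma called 0 of 3 for doxorubicin (0.837% of genes) and for both drugs against rapamycin (0.552%), with 0 at an unadjusted p under 0.05.

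**Figure D5:**
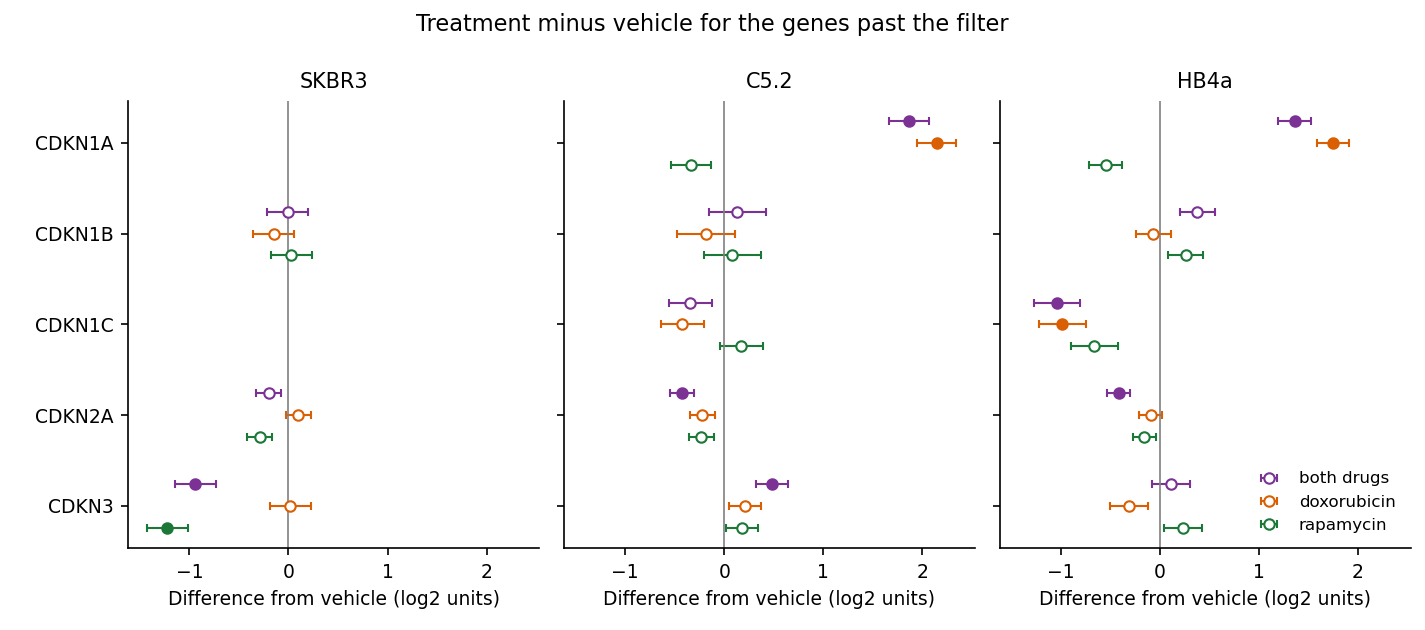
Difference from vehicle in log2 units (horizontal axis) ± SE for the CDK inhibitor genes tested in SKBR3, C5.2 and HB4a; filled points passed the test at adjusted p under 0.05 and open points did not. CDKN1A is raised by doxorubicin with or without rapamycin in C5.2 and HB4a, and CDKN3 is lowered by rapamycin with or without doxorubicin in SKBR3.

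In C5.2 the CDKN3 levels were 8.16, 7.33, 8.43, 8.32 and 8.0 with both drugs, against 7.67, 7.31, 7.76, 7.51 and 7.57 with vehicle, so it moved the other way there. The rise of 0.48 ± 0.16 passed narrowly (adjusted p = 0.0385). It was lost under 5 of 13 other settings and without any of 7 of 10 arrays, and array 2 with both drugs lay within the vehicle range. Doxorubicin alone differed by 0.21 ± 0.16 and rapamycin alone by 0.18 ± 0.16 in C5.2 (adjusted p = 0.629 and 0.473). Both drugs lay 0.27 ± 0.16 above doxorubicin and 0.30 ± 0.16 above rapamycin (adjusted p = 0.291 and 0.365). These passed with the experiment as a block (adjusted p = 0.025 and 0.0211) and without both-drugs array 2. In HB4a the differences were 0.11 ± 0.19 with both drugs, -0.31 ± 0.19 with doxorubicin and 0.23 ± 0.19 with rapamycin (adjusted p = 0.744, 0.316 and 0.629). Both drugs lay 0.43 ± 0.19 above doxorubicin (adjusted p = 0.279), which passed without both-drugs array 3. Of the 5 genes tested in C5.2, both drugs moved 3 (2 up and 1 down, 21% of genes), doxorubicin 1 (CDKN1A) and rapamycin 0 (17.4% of genes, and 0 at an unadjusted p under 0.05).

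The rapamycin response of CDKN3 was 1.40 ± 0.27 lower in SKBR3 than in C5.2 and 1.46 ± 0.29 lower than in HB4a (adjusted p = 9.92e-04 and 9.64e-04). For both drugs the differences were -1.42 ± 0.27 and -1.06 ± 0.29 (adjusted p = 3.14e-04 and 0.0142). The HB4a differences lost their calls without the arrays that stood apart in either line (-1.19 for rapamycin and -0.77 for both drugs, adjusted p = 0.0639 and 0.179). Over the 12 group means the genes most like CDKN3 were CEP78 (r = 0.988), CCNB2 (0.977) and CDCA3 (0.975), points that share the lines.

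The genes of cell division fell with CDKN3 in rapamycin-treated SKBR3. Of the 13 genes of the G2/M list 11 were tested, and 11 fell (median difference -1.38, all genes -0.03), where 18.3% of all genes moved. They include MKI67, the proliferation antigen gene (-1.55 ± 0.33), the checkpoint kinase gene BUB1 (-1.51 ± 0.22) and the kinesin gene KIF2C (-1.45 ± 0.13). Of 9 CDKs and cyclins tested 7 fell (median -0.99), among them CCNA2 (-1.58 ± 0.20), CDK1 (-1.54 ± 0.30) and CDK2, the substrate of the CDKN3 phosphatase (-1.0 ± 0.15). Of 14 G1/S genes 10 fell (median -0.63), such as the thymidylate synthase gene TYMS (-1.25 ± 0.11) and PCNA (-0.97 ± 0.11). With both drugs 10 of 11 G2/M genes and 6 of 9 CDKs and cyclins fell, where 22% of all genes moved. In C5.2 with rapamycin 2 of 12 G2/M genes fell, FOXM1 (-0.56 ± 0.10) and CDC20 (-0.54 ± 0.10), and in HB4a limma called 0 of 13. These counts are near the shares of all genes moved, 17.4% in C5.2 and 3.18% in HB4a. With both drugs 5 of 12 rose in C5.2 and 4 of 13 in HB4a, and 0 fell, where 21% and 17.4% of all genes moved. Among these was UBE2C, a ubiquitin-conjugating enzyme gene (0.65 ± 0.05 and 0.79 ± 0.08). Fewer dividing cells and less RNA per cell cannot be told apart in such bulk samples.

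Between the lines in vehicle, most genes differed. Of 5 CDK inhibitor genes tested, 5 were lower in SKBR3 than in C5.2, where 78.8% of genes differed (36.2% higher and 42.6% lower), and 4 were lower than in HB4a, where 77.3% differed (37.6% higher and 39.7% lower). CDKN1A and CDKN1C would not have passed the filter on SKBR3 arrays alone, so these counts are descriptive. Between C5.2 and HB4a 3 of 5 differed (1 up and 2 down), where 49.2% of genes did (29.3% higher and 19.9% lower). Array medians were 0.12 lower in SKBR3 than in C5.2 and 0.17 lower than in HB4a on average, a shift that array centring removes. Whether processing differed between the lines is not in the labels, so effects of line and of batch cannot be told apart.

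CDKN1A was 1.81 ± 0.29 lower in SKBR3 than in C5.2 and 3.51 ± 0.27 lower than in HB4a (adjusted p = 5.71e-07 and 2.31e-14). Without SKBR3 vehicle array 3 the differences were -2.25 and -3.96. It was also 1.70 ± 0.19 lower in C5.2 than in HB4a, without overlap, which is 3.25-fold (adjusted p = 9.23e-10). CDKN1C was lower in C5.2 than in HB4a by 1.09 ± 0.23 (adjusted p = 1.86e-04), and lower in SKBR3, where it was near background, than in either by 3.81 ± 0.19 and 4.91 ± 0.20. CDKN2A ran the other way between the related lines: it was 0.54 ± 0.12 higher in C5.2 than in HB4a without overlap (adjusted p = 3.17e-04), and probe set 207039_at gave 0.61 ± 0.13. In SKBR3 it was 4.33 ± 0.12 lower than in C5.2 and 3.79 ± 0.12 lower than in HB4a.

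CDKN1B was 0.82 ± 0.26 lower in SKBR3 than in C5.2 (adjusted p = 0.00496). It was 0.58 ± 0.25 higher in C5.2 than in HB4a (adjusted p = 0.0518), which passed under 7 of 12 other settings, the experiment block among them (adjusted p = 0.00516), and without HB4a vehicle array 4 or 6 or C5.2 vehicle array 2. CDKN3 was 0.71 ± 0.19 lower in SKBR3 than in C5.2 and 0.99 ± 0.20 lower than in HB4a (adjusted p = 0.00103 and 4.45e-05). With the filter at log2 3, CDKN2D was 0.75 ± 0.19 higher in C5.2 than in HB4a (adjusted p = 9.78e-04) and 1.23 ± 0.16 lower in SKBR3 than in C5.2 (adjusted p = 9.62e-09). Against HB4a it was 0.49 ± 0.19 lower in SKBR3 (adjusted p = 0.0222), a call lost without HB4a vehicle array 6 or SKBR3 vehicle array 1 or 2. CDKN2B was 1.46 ± 0.30 higher in C5.2 than in HB4a (adjusted p = 1.02e-04). CDKN2B would not have passed the filter at log2 3 on HB4a arrays alone, so this value is descriptive. Its 5 SKBR3 vehicle arrays all read at or under their array medians, so only a bound can be given: CDKN2B was at least 4.73-fold lower in SKBR3 than in C5.2 and at least 1.72-fold lower than in HB4a, where it was not tested. The bound sets each SKBR3 array at its own median. The difference as measured from C5.2 was -3.08 ± 0.28 (adjusted p = 2.29e-12), in a fit that CDKN2B entered through C5.2 alone.

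MTAP, the metabolic enzyme gene next to CDKN2A, was 0.88 ± 0.22 higher in C5.2 than in HB4a and 1.91 ± 0.17 lower in SKBR3 than in C5.2 (adjusted p = 0.00118 and 8.28e-13). It was the 1 gene of 4 listed neighbours that passed the filter, so it was the only one tested. MTAP passed through C5.2 and would not have passed on HB4a or SKBR3 arrays alone, so these values are descriptive. Of 20 listed regulators of the INK4 and KIP genes 15 were tested between C5.2 and HB4a, of which 11 were higher and 1 lower (median 0.80, all genes 0.10), where 29.3% of genes were higher and 49.2% differed. Among them were the transcription factor gene ETS1 (1.95 ± 0.27), the repressor gene TBX3 (1.25 ± 0.15) and the Polycomb gene EZH2 (1.04 ± 0.17), with MYC the lower one (-0.96 ± 0.16). In SKBR3 12 of 15 differed from C5.2, near the background of 78.8%. Of these 11 were lower, where 42.6% of genes were lower, with SMAD4 (-5.44 ± 0.16), ID1 (-5.20 ± 0.30) and ETS1 (-3.38 ± 0.29) the most. On the arrays of a single line, 15 listed regulators passed the filter in C5.2, 13 in HB4a and 9 in SKBR3. The counts of regulators are therefore descriptive. CCND1, the D-type cyclin gene whose kinases INK4 proteins stop, was 2.85 ± 0.33 lower in C5.2 than in HB4a and 3.73 ± 0.22 higher in SKBR3 than in C5.2. RB1 was higher in SKBR3 than in C5.2 (1.25 ± 0.37) and than in HB4a (2.67 ± 0.36). The lists of these 2 genes moved both ways. In SKBR3 against C5.2, 3 of 9 CDKs and cyclins were higher and 5 lower. Of 11 RB and E2F genes 3 were higher and 4 lower, where 78.8% of genes differed.

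Comparing both drugs with each single drug, CDKN1A was the 1 of 5 genes that moved against rapamycin in C5.2 (6.39% of genes) and in HB4a (8.84%). Against doxorubicin limma called 0 of 5 in C5.2 (13.5% of genes, 0 at an unadjusted p under 0.05) and 0 of 5 in HB4a (2.58% of genes, 4 at an unadjusted p under 0.05). The departure of the pair from the sum of single effects was called for 0 CDK inhibitor genes and for 0% of genes in each line, with 0 members at an unadjusted p under 0.05.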

How the data were processed

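RNA levels were measured on 60 arrays. The deposited values are log2 expression values per probe set processed by the authors; RMA is the one tool named in the submitters' processing notes, and its version and a genome build are not given in the sources used here. That the log base is 2 was read from the range of the values, -0.60 to 13.08. Levels near the array medians therefore carry little information, and the number of arrays limits the precision.

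Groups came from the labels' treatment names. The 8 genes and the 8 gene lists were chosen with earlier results of these data known. Of 54675 probe sets, 41091 had 1 gene symbol, 1801 several, 11721 none and 62 were controls; only the first kind was named. The brightest probe set over all 60 arrays stood for a gene. limma 3.58.1 in R 4.3.3 (lmFit and eBayes with trend) fitted 1 mean per group, over the 20 arrays of a line or the 40 arrays of a pair of lines. Tests were 2-sided with Benjamini-Hochberg adjustment over all genes tested, in 30 contrasts. Named genes are all members, with list genes chosen by the size of their called differences, and the 5 genes most like CDKN1A and 3 most like the other tested genes.

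Where every pair of same-numbered arrays correlated above 0.1 in their deviations from the group means, the numbers were taken to pair the samples. This held for doxorubicin and rapamycin against vehicle in HB4a, for the comparisons within C5.2 other than both drugs against vehicle and the departure, within SKBR3, for C5.2 against HB4a in vehicle, for the doxorubicin responses, and for the rapamycin responses of C5.2 and HB4a. On data simulated for doxorubicin in HB4a over 6167 genes, 84% of changes of 1 log2 unit and 37% of changes of 0.5 were recovered. The alternatives were 13 other settings and each array left out in turn. The fits with the filter at log2 3 and the block, or without SKBR3 vehicle array 3, were chosen after seeing the data. Start regions are RefSeq windows of GRCh38.p14, found for 7 of the 8 genes.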

Additional observations from a re-analysis of the deposited data

Results flagged for a closer look

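Over 7 genes in the same 12 groups of 5 arrays, 6 of 84 sets of values held an array far from the other 4, where chance gives about 1 in 20. CDKN1A stood at 6.59 on SKBR3 vehicle array 3. CDKN1B was low on HB4a both-drugs array 3 (5.94) and on C5.2 doxorubicin array 2 (5.54). CDKN2D was high on SKBR3 both-drugs array 2 (3.52). CDKN3 was low on array 2 of HB4a doxorubicin (7.23) and of HB4a vehicle (7.38). In HB4a array 2 had the lowest CDKN3 and CDKN1B level with doxorubicin, rapamycin and vehicle, whereas with both drugs array 3 did (7.21 for CDKN3).

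Responses differed between lines by limma's interaction test for these genes. For doxorubicin, CDKN1A differed by -2.10 between SKBR3 and C5.2 and by -1.71 between SKBR3 and HB4a. For rapamycin, CDKN3 differed by -1.40 and -1.46 in the same order. For both drugs, CDKN1A differed by -1.97 and -1.47 and CDKN3 by -1.42 and -1.06, and CDKN1C by 0.995 between SKBR3 and HB4a. CDKN1C passed the filter through HB4a alone and was near background in SKBR3, so its value restates the HB4a fall.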

How the results depend on the processing

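Counts of calls over the CDK inhibitor genes moved with these settings. For treatments against vehicle in HB4a, 5 calls became 3 with the filter at log2 7, 2 with the mean of all probe sets and 8 with the replicate block; in C5.2, 4 became 8 with array weights and 9 with the block; in SKBR3, 2 became 0 with the filter at 7 and 1 without the arrays that stood apart. For both drugs against each drug, HB4a went from 1 to 5 (block) and 2 (only the arrays compared), C5.2 from 1 to 7 (weights), 5 (block) and 3 (without the arrays apart), and SKBR3 from 1 to 2 (no filter, filter at 3, block) and 0 (filter at 7). In vehicle, C5.2 against HB4a had 3 calls, or 5 with no filter, the filter at 3 or weights, and SKBR3 against C5.2 had 5, or 3 with the filter at 7. Response differences between C5.2 and HB4a had 0 calls, or 2 with weights or the block, and between SKBR3 and HB4a 5, or 3 without the arrays apart. The cause of each was not tested, except that a stricter filter tests fewer genes. The block also raised calls over all genes. In C5.2 rapamycin moved 2781 of 6292 genes with it and 1097 without it, and both drugs 2722 and 1320. In HB4a both drugs moved 2307 of 6167 genes with it and 1074 without it. Numbers did not pair the arrays for both drugs against vehicle in either line, or for both drugs against each drug in HB4a. Nor did they for the both-drugs responses of C5.2 and HB4a. Block counts that include these comparisons are descriptive. Shares of all genes under array weights are not given here.

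With the block the CDKN1A rapamycin difference passed in C5.2 (-0.33, and -0.43 with weights) and HB4a (-0.55). In HB4a CDKN1B passed with the block for both drugs against vehicle (0.38) and doxorubicin (0.44), as CDKN2D did against vehicle at the filter of 3 (0.40). Numbers did not pair the arrays in these 2 HB4a comparisons (lowest correlations -0.54 and -0.36), so these block results are descriptive. In SKBR3, without vehicle array 3 and with the block, the CDKN1A difference was 0.50 with doxorubicin and 0.35 with both drugs. With that array the CDKN1A differences were 0.04 and -0.11. Leaving out 1 array at a time gave counts of 5 to 6, 2 to 4 and 2 to 3 for treatments in HB4a, C5.2 and SKBR3, 1 to 2, 1 to 3 and 1 for both drugs against each, 3 to 4, 4 and 5 for the lines in vehicle, and 0, 4 to 6 and 4 for responses. CDKN1A then ranged, for doxorubicin, rapamycin and both drugs, over 1.59 to 1.84, -0.70 to -0.46 and 1.20 to 1.45 in HB4a, 2.02 to 2.32, -0.45 to -0.23 and 1.75 to 1.96 in C5.2, and -0.16 to 0.49, -0.70 to -0.05 and -0.30 to 0.34 in SKBR3. For single genes, 1509 of the other values kept their call, 56 gained and 33 lost it.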
